A study of Mus musculus with 13 samples.

Results

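Myosin light chains and tropomyosins are the small regulatory proteins of the muscle thick and thin filaments. They are described here for the gastrocnemius, a calf muscle of mixed but mostly fast fibres, of UCP1 transgenic mice and their wild-type littermates. The members were 9 genes chosen by name (Myl1, Myl2, Myl3, Myl4, Mylpf, Mylk2, Tpm1, Tpm2 and Tpm3), and every array probe that carries one of these gene names was taken, which gave 19 of the 55681 probes that are not controls. All 19 were among the 22716 probes kept for testing, and the array design names 34797 genes in all. Total RNA of 7 transgenic (UCP1-TG) and 6 wild-type (WT) mice was measured on 2-colour Agilent arrays, 1 array per mouse. All were adult males on the C57BL/6J background, with an age of 12 weeks in the design text, and all ate a purified low fat diet for 12 weeks. The transgene overexpresses UCP1, the uncoupling protein of brown fat mitochondria, in skeletal muscle per the series title, and the promoter that drives it is not given in the sources used here. Each mouse was labelled with Cy5 and set against a common Cy3 reference pool, so a value below is a log2 ratio to that pool, and a difference is UCP1-TG minus WT on the same scale.

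Each myosin head carries 1 essential (alkali) and 1 regulatory light chain, and tropomyosin lies along the actin filament and, with the troponins, sets when myosin may bind. Slow and fast fibres use different genes for these roles. Slow fibres use Myl3 as essential chain, Myl2 as regulatory chain and Tpm3 as tropomyosin, and share them in part with the heart ventricle. Fast fibres use Myl1, Mylpf and Tpm1, while Tpm2 (beta-tropomyosin) is found in both. Myl4 is the essential chain of embryonic muscle and of the atrium. Mylk2 is the skeletal muscle kinase that, with calmodulin and calcium, phosphorylates the regulatory chain.

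Between 20728 and 24036 probes per array were well above background in UCP1-TG mice and between 20643 and 23022 in WT mice. Over all kept probes, array pairs correlated at 0.37 to 0.72 within UCP1-TG, at 0.50 to 0.75 within WT and at -0.27 to 0.13 between the groups. The targeted gene, Ucp1, was at -0.20 to 0.85 in the 7 UCP1-TG mice and at -4.23 to -2.82 in 5 of the WT mice. The library labelled wild type 4 had a Ucp1 ratio of 0.45, at the UCP1-TG level, which goes against its label. Its mean log2 ratio of 4 brown adipocyte markers was 0.61, above the UCP1-TG mice (-0.22 to 0.02) and the other WT mice (-0.64 to -0.38). Cidea varied most of the 4 (SE of its difference 0.44, against 0.07 to 0.10 for Zic1, Otop1 and Dio2). The part of each marker in this mean was not separated. For Myl1, Tpm1 and Mylk2 it lay on the WT side, and its place among the WT values is therefore given for the main members below. Leaving it out left the counts of member probes called at 5 higher and 8 lower. All 8 skeletal muscle markers checked were measured, with a median difference of -0.13. At an adjusted p under 0.05 in limma, 4 were lower (Acta1, Myh4, Mb and Myod1) and 1 was higher (Chrna1, 1.03). Mb, at -0.54, was lower without overlap of the groups. Of all genes 16.0% were lower and 16.7% higher. In bulk tissue, fewer cells of a type and less RNA per cell cannot be told apart.

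Some probes of genes with more than 1 probe are printed below, since the probes of a gene did not all move alike. Their listed transcripts can overlap. Both Tpm2 probes list NM_009416, and both printed Tpm3 probes list the Ensembl transcript ENSMUST00000121503. Only a few transcripts are listed per probe, so a transcript that is not listed may still be measured. Coordinates are those of the array files (mm9, NCBI37), and each sequence is the 60-base probe in the sense of the transcript. Capitals mark the longest run of letters that 2 of them share, 12 bases between a Tpm3 and a Tpm2 probe and 10 bases between 2 Tpm1 probes.
Myl2 A_66_P104309, chr5:122556732-122556791, plus strand: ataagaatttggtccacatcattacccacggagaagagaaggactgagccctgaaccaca
Tpm3 A_55_P2246235, chr3:89877669-89877728, plus strand: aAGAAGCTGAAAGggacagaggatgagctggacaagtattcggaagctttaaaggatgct
Tpm3 A_55_P2090205, chr3:89892985-89893044, plus strand: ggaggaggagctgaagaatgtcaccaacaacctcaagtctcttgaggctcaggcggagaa
Myl1 A_52_P273120, chr1:66976853-66981100, minus strand: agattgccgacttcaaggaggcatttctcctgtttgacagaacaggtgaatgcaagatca
Tpm1 A_55_P2078680, chr9:66880274-66880333, minus strand: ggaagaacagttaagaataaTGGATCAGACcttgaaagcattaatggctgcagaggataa
Tpm1 A_55_P2032192, chr9:66871166-66871225, minus strand: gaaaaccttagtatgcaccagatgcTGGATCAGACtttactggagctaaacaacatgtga
Tpm2 A_55_P2121408, chr4:43532262-43532321, minus strand: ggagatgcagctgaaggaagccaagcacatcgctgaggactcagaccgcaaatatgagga
Tpm2 A_52_P315976, chr4:43531276-43531335, minus strand: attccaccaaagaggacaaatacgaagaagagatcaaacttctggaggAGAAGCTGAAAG
No member probe shared 20 or more bases in a row with a probe of another gene. The Tpm1 probes A_55_P2187038 (chr9:66875796-66875855) and A_55_P2187043 (chr9:66875782-66875841) share 46 bases and are not independent measurements. The Myl1 probe A_52_P273120 spans 4248 bases of the genome with its 60 letters, so it crosses at least 1 splice junction.

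Myosin light chain and tropomyosin genes of slow fibres were higher in UCP1-TG muscle, while Myl1, Tpm1 and Mylk2 of fast fibres were lower and Mylpf was not called. Of the 19 member probes, 5 were higher and 8 lower at an adjusted p under 0.05 in limma, and 6 were not called. Over all kept probes 31.8% were called, 16.0% higher and 15.8% lower. Every UCP1-TG array lay above every WT array for 1 member probe and below for 8, against 6.98% and 7.19% of all kept probes. The absolute difference was at least 0.5 for 11 of the 19 member probes (57.9%) and for 8.05% of all kept probes, with a median of 0.71 for member probes and 0.13 for all. Taking the brightest probe of each gene, 4 of the 9 genes were higher and 4 lower, where 16.7% and 16.0% of all 17257 genes were. By these probes the groups did not overlap for 1 gene higher and 4 genes lower, against 7.47% and 7.26% of all genes. The differences depend on a normalization by loess within each array. With median centring in its place the median difference of all probes moved to 0.13, the same 5 member probes stayed higher, and 1 of the 8 lower calls, Mylk2, remained.

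**Figure D1:**
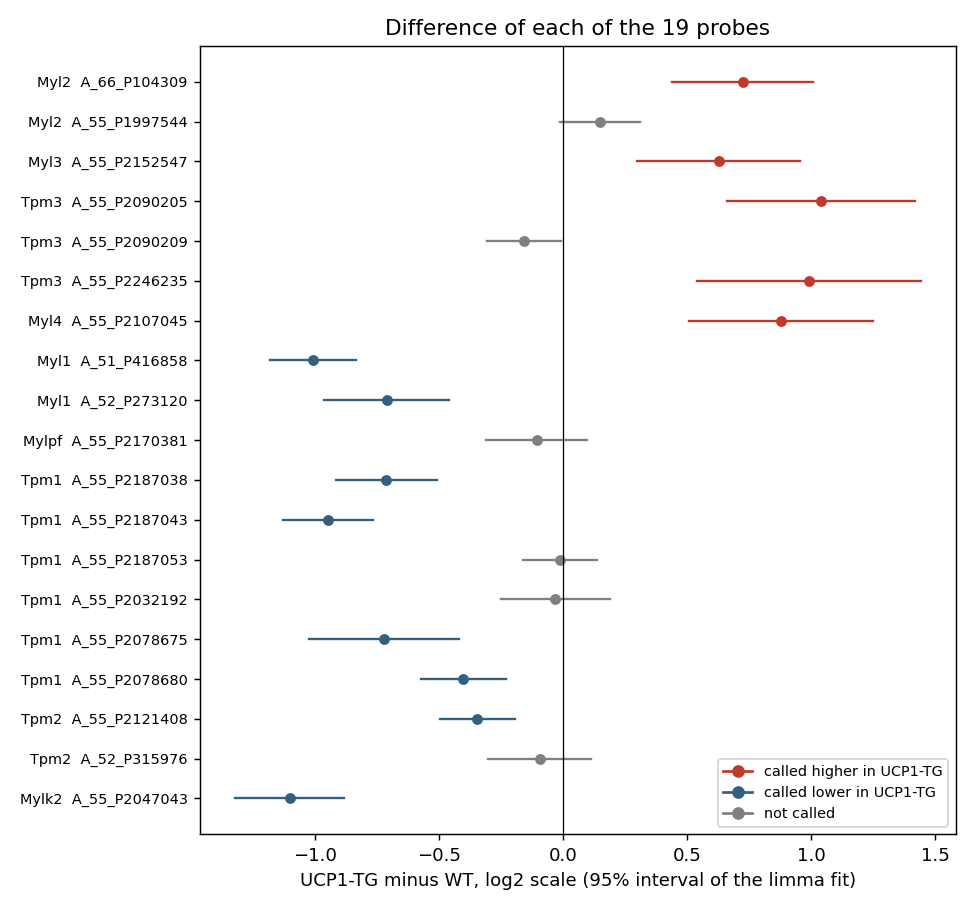
Difference between UCP1-TG and WT (log2 scale, x axis) for each of the 19 probes, with the 95% interval of the limma fit and colour by call at an adjusted p under 0.05. The 5 probes called higher lie between 0.63 and 1.04 and the 8 called lower between -1.10 and -0.35. With median centring in place of loess, 1 of the 8 lower calls remained and Tpm2 A_55_P2121408 stood at 0.0036, or -0.13 relative to the median of all probes.

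The slow regulatory light chain Myl2, measured by A_66_P104309, had a lowest, median and highest log2 ratio of -0.12, -0.03 and 0.28 in UCP1-TG mice, and of -1.25, -0.71 and -0.09 in WT mice. The groups overlapped through wild type 1 (-0.09), while the library labelled wild type 4 stood at -0.43. The difference was 0.72 ± 0.14 (SE, n = 7 and 6, adjusted p = 3.7e-04 in limma), or 1.65-fold. The spread between WT mice (SD 0.42) was larger than between UCP1-TG mice (SD 0.13). A 2nd Myl2 probe, A_55_P1997544 (chr5:122555230-122555289), which the files assign to 1 Ensembl transcript, was dim, well above background on 6 UCP1-TG arrays and 1 WT array. Its difference of 0.15 ± 0.08 was not called (adjusted p = 0.151 in limma), with an interval of -0.01 to 0.31. It was 0.96 with Agilent's own log ratio, 0.31 with a normexp offset of 10 and 0.0089 in the authors' table, called in none. Within the 4 slides it was -0.04 to 0.36.

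The slow essential light chain Myl3, measured by A_55_P2152547 (chr9:110672238-110672297), had a lowest, median and highest log2 ratio of -0.11, 0.21 and 0.46 in UCP1-TG mice, and of -0.91, -0.64 and 0.43 in WT mice. As for Myl2, wild type 1 (0.43) lay among the UCP1-TG values. The library labelled wild type 4 was at -0.29, next in order. The difference was 0.63 ± 0.16 (SE, n = 7 and 6, adjusted p = 0.0043 in limma), or 1.54-fold. Within the slide that holds wild type 1 and 2 UCP1-TG mice, the Myl3 difference was -0.22 and the Myl2 difference 0.02. In the other 3 slides both were above 0, at 0.45 to 0.98 for Myl3 and 0.58 to 1.18 for Myl2. The Cy5 signal of Myl3 was bright enough to be read from the scan at low detector gain and scaled up on 7 UCP1-TG and 3 WT arrays, and the part of this in the result was not tested.

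The slow tropomyosin Tpm3 showed the largest rise among the members, and its probes differed. A_55_P2090205, which the files list for the RefSeq transcript NM_001253740, had a lowest, median and highest log2 ratio of -0.05, 0.33 and 0.90 in UCP1-TG mice, and of -1.48, -0.45 and -0.25 in WT mice. All UCP1-TG values lay above all WT values, with the library labelled wild type 4 at -0.36. The difference was 1.04 ± 0.18 (SE, n = 7 and 6, adjusted p = 1.7e-04 in limma), or 2.05-fold. Wild type 5 and wild type 6 were the lowest, at -1.19 and -1.48, and the other 4 WT mice lay between -0.53 and -0.25.

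A_55_P2246235, listed for NM_022314, rose by 0.99 ± 0.22 (adjusted p = 0.0014 in limma). Its values ran from -0.33 to 0.83 in UCP1-TG mice and from -1.60 to -0.19 in WT mice, overlapping. The deviations of these 2 probes from their group means correlated at r = 0.96 over the 13 arrays, which share labelling and hybridization. A_55_P2090209 (chr3:89904428-89904487), listed for NM_001253738 as well as both transcripts above, ran from -0.22 to 0.16 in UCP1-TG mice and from 0.04 to 0.29 in WT mice. Its difference was -0.16 ± 0.07 (adjusted p = 0.104 in limma, interval -0.31 to -0.01) and was not called. The 3 probes lie in the direction of transcription in the order A_55_P2246235, A_55_P2090205, A_55_P2090209, and the contrast between the last and the others was not itself tested.

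Myl4, the embryonic and atrial essential chain, measured by A_55_P2107045 (chr11:104448441-104448500), had a lowest, median and highest log2 ratio of -0.14, 0.19 and 1.13 in UCP1-TG mice, and of -0.94, -0.71 and -0.05 in WT mice. UCP1-TG 5 stood highest at 1.13. The groups overlapped through wild type 5 (-0.05), and the library labelled wild type 4 was at -0.25. The difference was 0.88 ± 0.18 (SE, n = 7 and 6, adjusted p = 7.1e-04 in limma), or 1.84-fold. Within the 4 slides it was 0.63 to 1.03. With median centring it was 1.12 and close to the threshold (adjusted p = 0.0497 in limma), or 0.99 relative to the median of all probes.

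White adipocyte and erythroid markers moved in the same direction as the slow light chains. All 7 measured white adipocyte markers of 8 listed (Lep did not pass the filter) were higher, with a median difference of 0.81. Their mean log2 ratio was -0.24 to 0.43 in UCP1-TG mice and -0.69 to -0.48 in 5 WT mice, with -0.02 in the library labelled wild type 4. All 3 measured erythroid markers were higher (median 0.62), as were 3 of 6 Schwann cell and nerve markers (median 0.25). Among cardiac markers Nppa, Tnni3, Ryr2 and Mybpc3 did not pass the filter on dim probes, and Myh6 was higher by 0.51. Of 4 brown adipocyte markers 1 was higher, of 6 fibroblast markers 2 were higher, and of 6 endothelial and 6 macrophage markers 1 each was lower. Of all genes 16.7% were higher and 16.0% lower, so single calls in such short lists carry little. The 3 satellite cell markers measured (Cdh15, Vcam1 and Pax7) lay between -0.09 and -0.01 and were not called. The part of these cells in the differences of the members was not tested.

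**Figure D2:**
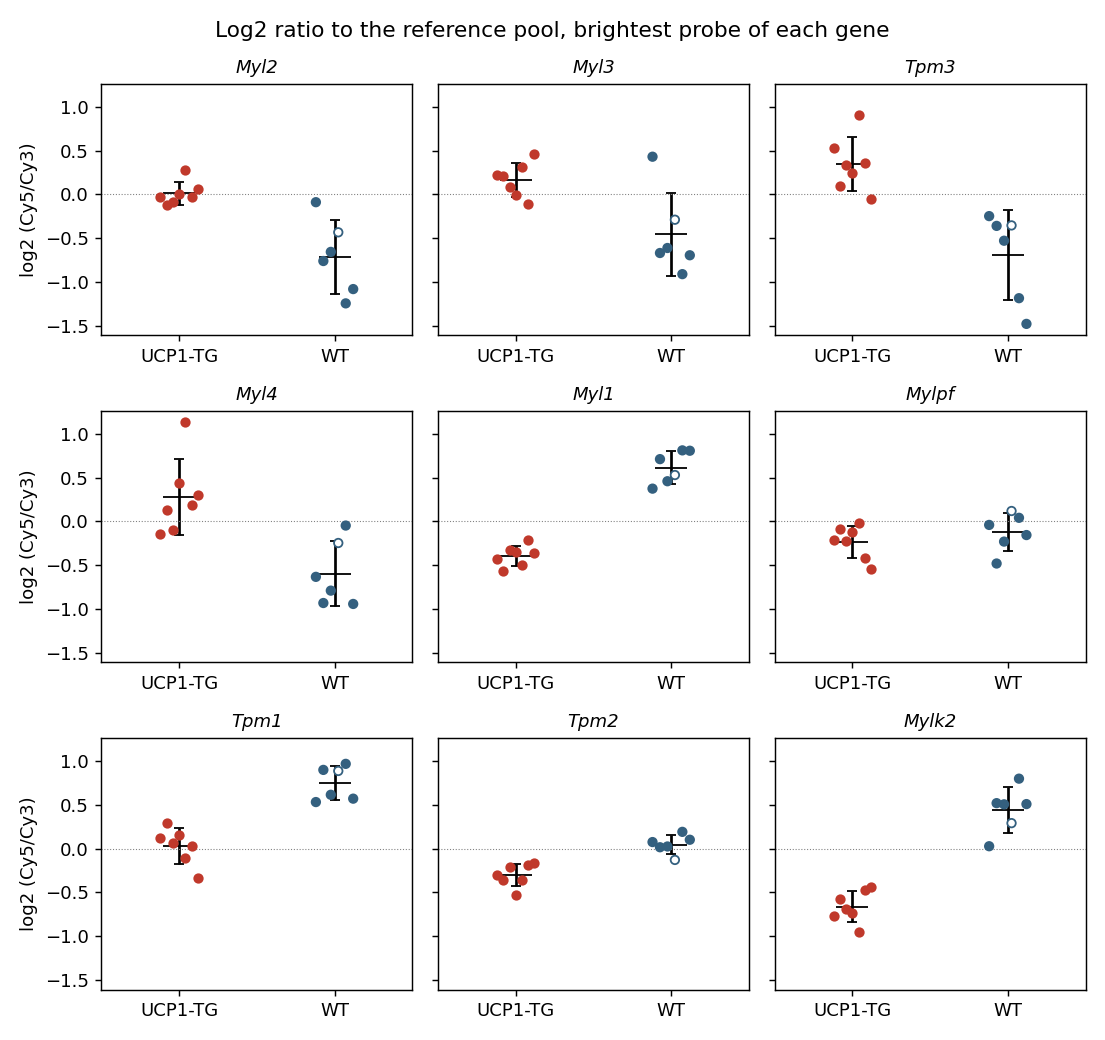
Log2 ratio to the reference pool (y axis) of the brightest probe of each gene in the 7 UCP1-TG mice (left) and 6 WT mice (right), with mean and SD and the library labelled wild type 4 as an open circle. Myl2, Myl3, Tpm3 and Myl4 are higher and Myl1, Tpm1, Tpm2 and Mylk2 lower in UCP1-TG, and Mylpf overlaps. With median centring in place of loess, Mylk2 alone of the lower 4 stayed called. Relative to the median of all probes Tpm2 was then at -0.13 and Mylpf at 0.01.

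The fast essential light chain Myl1 fell to a lower level in every UCP1-TG mouse. A_51_P416858 (chr1:66970948-66971007, minus strand), listed for both NM_021285 and NM_001113387, had a lowest, median and highest log2 ratio of -0.57, -0.36 and -0.22 in UCP1-TG mice, and of 0.37, 0.62 and 0.81 in WT mice. The library labelled wild type 4 was at 0.53. The difference was -1.01 ± 0.08 (SE, n = 7 and 6, adjusted p = 1.3e-08 in limma), or 2.01-fold lower, and it lay between -1.10 and -0.87 within the 4 slides. This spot is among the brightest, read at low gain and scaled up on all 13 arrays, and its size depended on the processing. It was -0.63 with Agilent's own log ratio, -0.56 from the Cy5 channel alone, and -0.61 with median centring (-0.74 relative to the median of all probes), where the call was lost (adjusted p = 0.136 in limma).

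A_52_P273120, listed for NM_001113387 and not NM_021285, ran from -0.94 to -0.26 in UCP1-TG mice and from -0.01 to 0.72 in WT mice, without overlap. Its difference was -0.71 ± 0.12 (adjusted p = 1.3e-04 in limma). With median centring it was -0.36 and was not called (adjusted p = 0.379 in limma), or -0.49 relative to the median of all probes. Myl1 makes a long and a short essential chain from a pair of promoters. Both of its probes were lower, but A_51_P416858 lists both transcripts, so the 2 chains were not measured apart. The deviations of the 2 probes from their group means correlated at r = 0.16 over the 13 arrays.

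The fast regulatory light chain Mylpf, by its only probe, did not follow Myl1. A_55_P2170381 (chr7:134355191-134355250) had a lowest, median and highest log2 ratio of -0.54, -0.22 and -0.02 in UCP1-TG mice, and of -0.48, -0.10 and 0.12 in WT mice, and the groups overlapped. Its difference of -0.11 ± 0.10 (adjusted p = 0.444 in limma) had an interval of -0.31 to 0.10, which at this probe leaves out a change as large as that of Myl1. The Cy5 signal was 1012 to 2166 in UCP1-TG mice and 902 to 1904 in WT mice. For Myl1 A_51_P416858 it was 56229 to 149728 and 82247 to 169450. Whether this dimmer probe reports the main Mylpf RNA was not tested.

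Mylk2, the kinase of the regulatory chain, had the largest absolute difference of the 19 probes after loess, but not in the authors' table or with median centring, where Tpm3 A_55_P2090205 (1.13 and 1.33) exceeded it (-1.02 and -0.79). A_55_P2047043 (chr2:152748725-152748784) had a lowest, median and highest log2 ratio of -0.95, -0.69 and -0.44 in UCP1-TG mice, and of 0.03, 0.51 and 0.80 in WT mice. Its groups were separate, with wild type 1 (0.03) nearest to the UCP1-TG mice and the library labelled wild type 4 at 0.29. The difference was -1.10 ± 0.11 (SE, n = 7 and 6, adjusted p = 1.3e-07 in limma), or 2.15-fold lower. No Mylk2 spot was read at low gain, and with median centring the difference was -0.79 and was still called (adjusted p = 0.0417 in limma), or -0.92 relative to the median of all probes.

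Tpm1, the alpha-tropomyosin of fast fibres, was covered by 6 probes, of which 4 were lower without overlap of the groups and 2 were not called. The brightest, A_55_P2187038, had a lowest, median and highest log2 ratio of -0.34, 0.07 and 0.29 in UCP1-TG mice, and of 0.53, 0.75 and 0.97 in WT mice. The library labelled wild type 4 was at 0.89 by this probe. The difference of A_55_P2187038 was -0.71 ± 0.10 (adjusted p = 1.3e-05 in limma), and that of the overlapping probe A_55_P2187043 was -0.95 ± 0.09 (adjusted p = 6.4e-08 in limma). Both are listed for NM_001164248, NM_001164251 and NM_001164254, among others. Both spots were read at low gain on all 13 arrays. From the Cy5 channel alone the values were -0.28 and -0.49, and with median centring -0.30 and -0.54, neither called in the last setting (-0.42 and -0.67 relative to the median of all probes).

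The other Tpm1 probes were dimmer. A_55_P2078675 (chr9:66876655-66876714), assigned to 1 Ensembl transcript, ran from -1.06 to -0.11 in UCP1-TG mice and from 0.01 to 0.72 in WT mice, a difference of -0.72 ± 0.14 (adjusted p = 6.5e-04 in limma). A_55_P2078680, listed for NM_001164251, NM_001164250 and NM_001164253, ran from -0.50 to -0.06 in UCP1-TG mice and from -0.04 to 0.37 in WT mice, a difference of -0.40 ± 0.08 (adjusted p = 7.8e-04 in limma). It is the dimmest of the 6, and with Agilent's own log ratio its difference was -0.79.

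The last 2 Tpm1 probes in the direction of transcription showed no called change. A_55_P2187053 (chr9:66872131-66872190), listed for NM_001164255 and NM_001164256, ran from -0.14 to 0.22 in UCP1-TG mice and from -0.0041 to 0.20 in WT mice, a difference of -0.01 ± 0.07 (adjusted p = 0.912 in limma). A_55_P2032192, listed for NM_001164249, NM_001164250, NM_024427 and NM_001164252, ran from -0.65 to 0.05 in UCP1-TG mice and from -0.44 to 0.04 in WT mice, a difference of -0.03 ± 0.11 (adjusted p = 0.853 in limma). Their intervals, -0.16 to 0.14 and -0.25 to 0.19, leave out the sizes seen at the 2 brightest probes. With median centring they were 0.19 and 0.15, or 0.07 and 0.02 relative to the median of all probes, and not called.

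Tpm2, beta-tropomyosin, was measured by a pair of bright probes that both list NM_009416. A_55_P2121408 ran from -0.53 to -0.16 in UCP1-TG mice and from -0.13 to 0.19 in WT mice, without overlap, and the lowest WT value was that of the library labelled wild type 4. Its difference of -0.35 ± 0.07 was called (adjusted p = 9.0e-04 in limma) but stood at 0.0036 with median centring, or -0.13 relative to the median of all probes, and was not called. A_52_P315976 ran from -0.44 to -0.0028 in UCP1-TG mice and from -0.36 to 0.36 in WT mice, and its difference of -0.09 ± 0.10 was not called (adjusted p = 0.509 in limma).

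**Figure D3:**
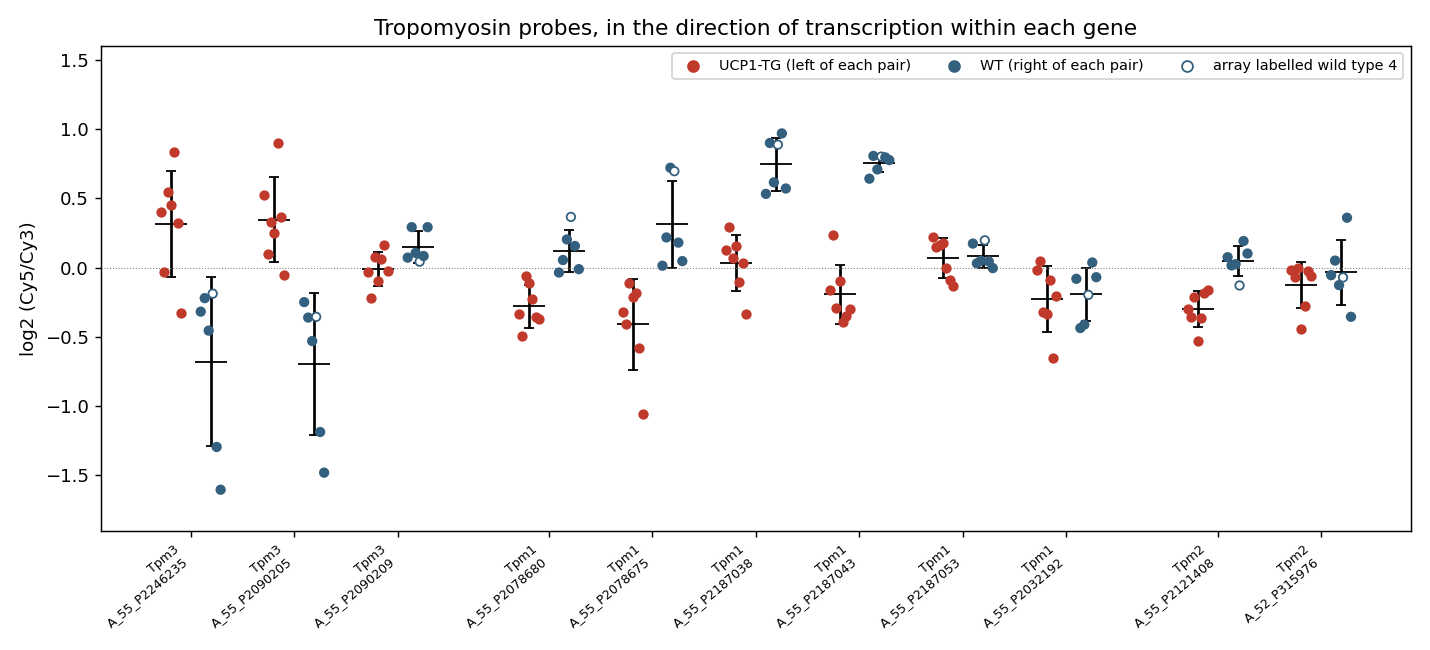
Log2 ratio to the reference pool (y axis) of the 11 tropomyosin probes, ordered within each gene in the direction of transcription, for 7 UCP1-TG mice (left of each pair) and 6 WT mice (right), with mean and SD. The 2 leading Tpm3 probes are higher in UCP1-TG, and the 4 leading Tpm1 probes and 1 Tpm2 probe lower, while the last probe of each gene overlaps between groups. With median centring in place of loess none of these 5 lower calls of limma remained (2 tropomyosin probes were lower at an unadjusted p under 0.05).

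Set against each other in the same mouse, the slow and fast partner of each role differed in balance between the groups. These values subtract 2 log2 ratios to the pool on 1 array, so they say how the balance moved and not which gene has more RNA. Myl3 minus Myl1 averaged 0.56 ± 0.28 in UCP1-TG mice (0.10 to 0.82) and -1.08 ± 0.64 in WT mice (-1.72 to 0.05; SD, n = 7 and 6). Every UCP1-TG mouse was above every WT mouse, with wild type 1 nearest.

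Myl2 minus Mylpf averaged 0.24 ± 0.20 in UCP1-TG mice (-0.03 to 0.60) and -0.59 ± 0.45 in WT mice (-1.29 to -0.05; SD, n = 7 and 6). Tpm3 minus Tpm1 averaged 0.31 ± 0.36 in UCP1-TG mice (-0.19 to 1.00) and -1.44 ± 0.54 in WT mice (-2.16 to -0.78; SD, n = 7 and 6). Tpm3 minus Tpm2 averaged 0.64 ± 0.36 in UCP1-TG mice (0.11 to 1.26) and -0.74 ± 0.59 in WT mice (-1.58 to -0.23; SD, n = 7 and 6). In none of these 3 balances did a WT mouse reach a UCP1-TG mouse, and the library labelled wild type 4 lay within the range of the other WT mice for Myl2 and Tpm1 and was the highest WT for Tpm2. For Myl2 minus Mylpf the nearest mice of the groups were at -0.03 and -0.05, and Mylpf itself was not called. These balances rest on the same probes as the differences above, after loess, and add no test. The share of other gene pairs without overlap was not computed.

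**Figure D4:**
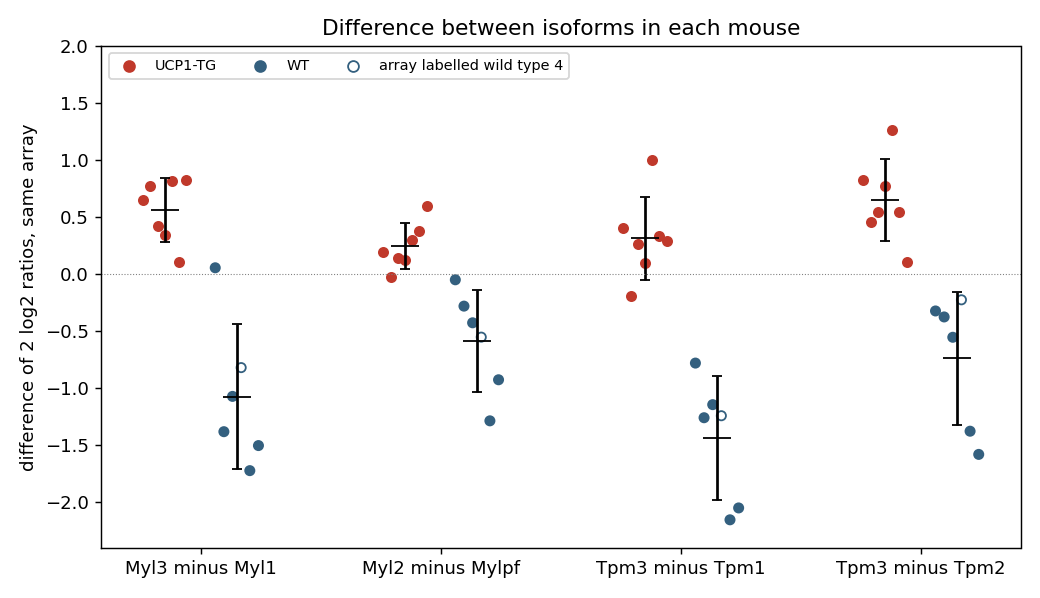
Difference between isoforms in each mouse, slow minus fast for 3 pairs and Tpm3 minus Tpm2, which both fibre types use, (y axis, difference of 2 log2 ratios on the same array), with mean and SD, UCP1-TG to the left of WT and the library labelled wild type 4 as an open circle. In all 4 pairs, after loess, the 7 UCP1-TG mice lie above the 6 WT mice. For Myl2 minus Mylpf the nearest mice of the groups were at -0.03 and -0.05. The pairs were not computed with median centring, nor was the share of other gene pairs without overlap.

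Within groups Myl2 varied from mouse to mouse with Myl3 and Tpm3, more closely among WT than among UCP1-TG mice. Deviations from the group means over the 13 arrays correlated at r = 0.85 between Myl2 and Myl3 and at 0.79 between Myl2 and Tpm3, at 0.46 between Myl3 and Tpm3, and at -0.82 between Myl2 and Mylk2. Between Myl2 and Myl3 the correlation was 0.44 over the 7 UCP1-TG arrays and 0.92 over the 6 WT arrays. In the same order it was 0.65 and 0.85 between Myl2 and Tpm3, and -0.06 and 0.62 between Myl3 and Tpm3. Between Myl2 and Mylk2 it was -0.56 and -0.94. The genes most like each member by this measure, over 17133 genes, included slow-fibre genes for Myl3, Tpm3 and Myl2. Atp2a2 (r = 0.93), the slow calcium pump, Tnni1 (0.91), slow troponin I, and Myoz2 (0.89) led for Myl3, and Tnnt1 (0.94), slow troponin T, led for Tpm3. For Myl2 the 2 leading entries were regions without a gene name, and Tnni1 (0.91) came next. Of the others, the leading gene was Bcap31 for Tpm1 (0.95), BC029214 for Myl1 (0.93), Tnks1bp1 for Mylk2 (0.96), Tmem208 for Mylpf (0.93) and C1qbp for Myl4 (0.88). These are descriptions of arrays that share labelling, slides and a normalization, and carry no test.

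Other contractile genes divided in the same way, by lists of textbook fibre type genes outside the 9. Of 10 slow-fibre genes 8 were higher and none lower in limma (1 was lower at an unadjusted p under 0.05), with a median difference of 0.83. Myh7, the slow myosin heavy chain, was higher by 1.17 ± 0.16 (adjusted p = 1.2e-05 in limma). Tnni1 (1.09), Myh7b (0.96) and Tnnt1 (0.96) followed. Of 12 fast-fibre genes 9 were lower and 1 higher, with a median of -0.63. That median was -0.30 with Agilent's own log ratio, -0.32 from the Cy5 channel alone and -0.24 with median centring, while the slow-fibre median was 0.91 and 0.86 in the first 2 of these settings and higher still in the last. Pvalb, the calcium buffer parvalbumin, had a difference of -0.91 ± 0.12 (adjusted p = 4.6e-06 in limma), and Casq1 (-0.90), Tnnc2 (-0.79) and Myh4 (-0.74), the fastest heavy chain, were lower too. The exception was Myh1, the heavy chain of IIX fibres, at 0.62, named after its value was seen. Over all genes, 32.7% were called and the median difference was -0.0010. With median centring 8 slow-fibre genes were called higher and no fast-fibre gene lower in limma (2 were lower at an unadjusted p under 0.05).

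Developmental and cardiac genes did not move as a group with Myl4. Of 6 measured of 9 listed, Myh8, the perinatal heavy chain, was lower (-0.74), as was Mybph (-0.52), Myh6 was higher (0.51), and 3 were not called. With median centring Myh8 was at -0.32 and Mybph at -0.27, and neither was called. Among 7 measured smooth muscle and non-muscle light chains and tropomyosins of 9 listed, Myl12a was higher (0.47) and 6 were not called. Of 8 smooth muscle and pericyte markers 1 was higher and 1 lower. The shares of all genes beside these counts were 16.7% higher and 16.0% lower.

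Related kinases, phosphatase subunits and calmodulins were mostly lower, as Mylk2 was. Of 9 measured kinases, phosphatase subunits and calmodulins of 10 listed, 6 were lower and 1 higher, against 16.0% and 16.7% of all genes. The absolute difference was at least 0.5 for 4 of the 9. Mylk4, a kinase of the same family, was lower with a difference of -1.93 ± 0.12 (adjusted p = 1.6e-10 in limma). The calmodulin genes Calm2 (-0.83) and Calm3 (-0.62), whose product switches the kinase on, were lower too. With median centring 2 of the 9 were called lower.

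Among 12 measured thin filament partners of tropomyosin of 13 listed, 5 were lower and 2 higher. Of all genes 16.0% were lower and 16.7% higher. Acta1, skeletal actin, was lower (-0.93), as were Capza2 (-0.74), a capping protein subunit, and Tmod4 (-0.46), a tropomodulin of the pointed end. Cfl2, muscle cofilin, was higher (0.74). Of 20 regulators of fibre type, 7 were lower and 1 higher, against the same shares of all genes. Their median absolute difference was 0.19, and that of all genes 0.14. Myog, myogenin, was higher by 1.39 ± 0.09 (adjusted p = 6.7e-10 in limma), whereas Sox6 (-0.57), known to repress slow-fibre genes, and Srf (-0.40) were lower. With median centring none of the lower calls of limma in these 2 lists remained, and 1 gene of each was lower at an unadjusted p under 0.05.

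**Figure D5:**
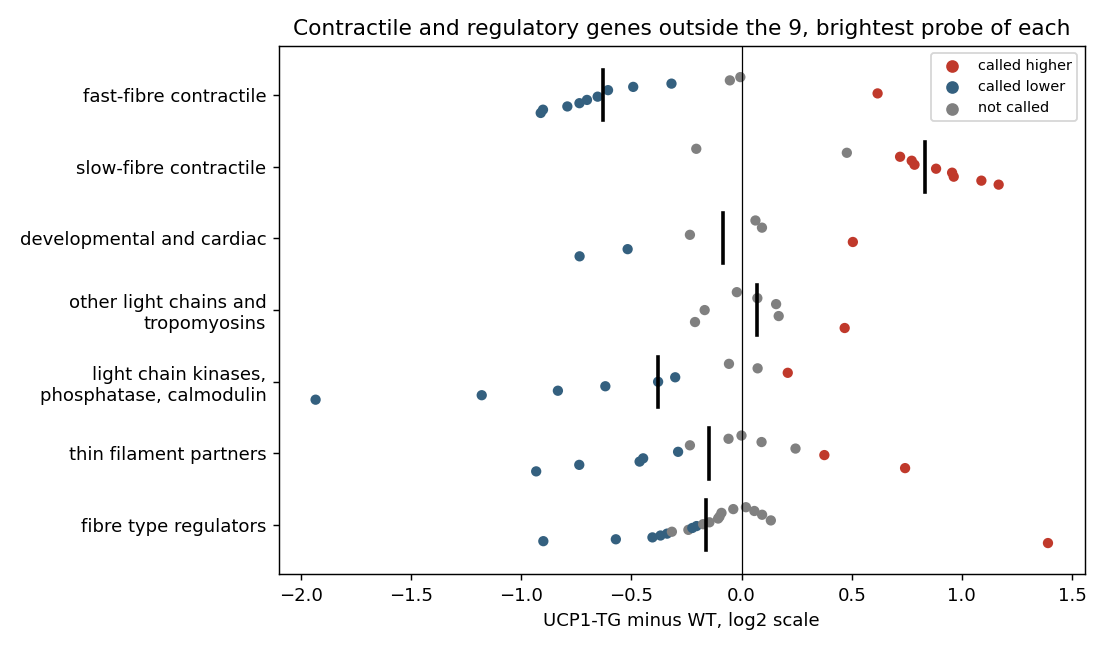
Difference between UCP1-TG and WT (log2 scale, x axis) of the measured genes of 7 lists outside the 9 genes, each by its brightest probe, with the list median as a black bar and colour by call. The slow-fibre genes centre at 0.83 and the fast-fibre genes at -0.63, a value that was -0.30 with Agilent's own log ratio, -0.32 from Cy5 alone and -0.24 with median centring. With median centring in place of loess no fast-fibre gene was called lower by limma (2 were at an unadjusted p under 0.05).

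The stretches upstream of 4 genes that moved in opposite directions are printed from RefSeq's GRCm38.p6 annotation, 250 bases up to the start site, with E-boxes (CANNTG) and CArG boxes in capitals. They show the letters before a slow and a fast essential light chain (Myl3, Myl1) and a slow and a fast tropomyosin (Tpm3, Tpm1).
Myl3, chr9:110763428-110763677, plus strand: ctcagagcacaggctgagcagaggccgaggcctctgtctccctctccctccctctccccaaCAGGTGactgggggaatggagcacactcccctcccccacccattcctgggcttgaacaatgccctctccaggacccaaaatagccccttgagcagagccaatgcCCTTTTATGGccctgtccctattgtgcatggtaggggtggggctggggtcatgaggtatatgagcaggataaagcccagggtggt
Tpm3, chr3:90072401-90072650, plus strand: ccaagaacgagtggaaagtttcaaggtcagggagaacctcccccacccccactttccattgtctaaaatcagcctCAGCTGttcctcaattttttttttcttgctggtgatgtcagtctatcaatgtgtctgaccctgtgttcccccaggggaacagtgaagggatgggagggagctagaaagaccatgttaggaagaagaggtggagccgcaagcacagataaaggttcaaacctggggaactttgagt
Myl1, chr1:66945057-66945306, minus strand: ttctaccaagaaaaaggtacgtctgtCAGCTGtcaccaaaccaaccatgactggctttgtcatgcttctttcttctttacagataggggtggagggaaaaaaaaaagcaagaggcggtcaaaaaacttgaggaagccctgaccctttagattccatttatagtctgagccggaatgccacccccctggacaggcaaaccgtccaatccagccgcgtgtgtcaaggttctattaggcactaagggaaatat
Tpm1, chr9:67049214-67049463, minus strand: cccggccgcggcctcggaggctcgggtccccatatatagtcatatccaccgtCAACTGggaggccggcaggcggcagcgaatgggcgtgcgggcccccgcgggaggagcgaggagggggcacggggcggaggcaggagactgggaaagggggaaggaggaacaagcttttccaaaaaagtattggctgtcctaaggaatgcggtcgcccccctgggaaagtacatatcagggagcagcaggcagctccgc
Of the 9 genes 8 had a promoter entry (10 entries in all). Mylk2 had none. Both strands were searched for the E-box bound by MyoD family factors, the MEF2 site, the CArG box of Srf, the MEF3 site (TCAGGTT), the M-CAT site of Tead factors (CATTCC) and the NFAT core (GGAAA). An E-box was found in the window of every member with an entry other than Myl4, and 66.2% of 32851 promoters hold one. Myl3 held a CArG box, CCTTTTATGG, at -85 from the start site (1.47% of promoters hold one) and 2 M-CAT sites. Myl1 and Tpm1 held 1 M-CAT site each (12.6% of promoters). No member window held a MEF2 site (2.92% of promoters) or a MEF3 site (3.49%). The NFAT core was in the windows of Tpm3, Myl4, Myl1 and Tpm1 (55.6% of promoters). These matches are descriptions of letters in a window.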

How the data were processed

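Gastrocnemius RNA of 7 UCP1-TG and 6 WT mice was measured on 1 array each. Per the file headers, the deposited scanner files (Agilent Feature Extraction 10.5.1.1) hold spot and background intensity on a linear scale, the log10 ratio of processed signals, and other flags. The deposited value table was read as the authors' log2 intensity. How it was normalized is not given in the sources used here. Here, mean signals were corrected by normexp (offset 50) and normalized by loess within arrays with limma 3.58.1 in R 4.3.3. Control and outlier spots were left out, and no member spot was saturated. A probe was kept where 6 or more of the 13 arrays had it well above background in Cy5 (22716 probes, or 40.8%). The difference of the groups was tested by limma (lmFit, eBayes, two-sided), with Benjamini-Hochberg adjustment over all kept probes and a threshold of 0.05. Listed genes use their brightest kept probe. A difference carries the standard error of that fit, a mean the SD between mice. The number of arrays limits the precision.

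The members and lists were chosen with earlier results of these data known. The text names every member, the up to 4 listed genes with the largest called differences in each list, and up to 3 most similar genes per member. A few genes that meet this rule are not reported here. Mice with the same replicate number did not deviate together (correlations of -0.23 to 0.22), so the numbers were not taken as pairs. The alternatives were other background, ratio, centring and filter settings, the Cy5 channel alone, the authors' table, slides as a block, and each mouse left out. The fit was tested on simulated data.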

Additional observations from a re-analysis of the deposited data

Results flagged for a closer look

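The library labelled wild type 4 stood far from the other WT mice in Ucp1, with a log2 ratio of 0.4541 where the others lay between -4.23 and -2.82. In the Myl1 probe A_52_P273120, UCP1-TG 7 was far below the other UCP1-TG mice, at -0.9402. Of 40 groups of values checked in this way 2 stood out, and chance gives about 1 in 20.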

How the results depend on the processing

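The counts of 5 higher and 8 lower member probes were the same with Agilent's log ratio, no background correction, a normexp offset of 10, the Cy5 channel alone, the authors' value table, no filter on dim probes, outlier spots kept, the slide as fixed or random block, and without each mouse in turn. With probes above background on all 13 arrays, 17 member probes remained, 5 higher and 7 lower. With the brightest probe per gene, 4 were lower. With the replicate number as a block, 5 member probes were higher and 8 lower (3428 and 3436 of all probes). Without each mouse in turn, 3234 to 3649 probes were higher and 3298 to 3566 lower, and 15 to 16 listed genes were higher and 26 to 31 lower.

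Median centring without loess gave 1281 probes higher and 386 lower, 1 member probe lower (Mylk2) and 2 listed genes lower, and the cause was not tested. There the sign was above 0 for Mylpf (0.14), Tpm1 A_55_P2032192 (0.15) and A_55_P2187053 (0.19), Tpm2 A_52_P315976 (0.25) and A_55_P2121408 (0.0036) and Tpm3 A_55_P2090209 (0.11). Of these, A_55_P2121408 alone was called with loess. Relative to the median of all probes (0.13) the values were 0.01, 0.02, 0.07, 0.13, -0.13 and -0.01, in that order. Tpm1 A_55_P2187053 was 0.0211 with the replicate block and -0.0380 to 0.0211 without each mouse, Tpm1 A_55_P2032192 was -0.0802 to 0.0400 without each mouse, and Tpm2 A_52_P315976 was 0.0577 in the authors' table. Myl3 was -0.22 within slide 1. Signal over background limits A_55_P1997544 of Myl2. The size of the change at the brightest Myl1 and Tpm1 spots varied between settings, and the part of their low-gain readings was not tested.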
